A study of Mus musculus with 6 samples.

Results

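The myelin sheath genes described here are Mbp, Mobp, Mal, Cldn11, Opalin, Mag, Cnp, Mog and Ermn, 9 genes that were chosen by symbol and all found among the 25755 genes of the table. They were measured by bulk RNA sequencing of whole optic nerves from 6 mice of the genotype NF1flox/flox;hGFAP-Cre, so that Cre recombinase under the human GFAP promoter had inactivated Nf1 in neuroglial progenitors of sham and crushed animals alike. Mice 1 to 3 had sham surgery (incision without crush) and mice 4 to 6 had their optic nerve crushed (ON-CR), both at an age of 6 weeks, and nerves were taken at 12 weeks, which the labels give as 3 months. Mice without Nf1 loss were not analysed here, so the difference after ON-CR is described in this genotype alone.

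Myelin is the membrane that oligodendrocytes wrap around axons in the central nervous system, and in the optic nerve it covers the axons of retinal ganglion cells. In compact myelin the cytoplasmic faces of the membrane are pressed together by myelin basic protein (Mbp), with Mobp at the same faces. Mal is a proteolipid of the sheath, and claudin 11 (Cldn11) forms the tight junction strands that run between the lamellae. The other members lie outside compacted membrane in the strict sense. Mag faces the axon, Cnp keeps cytoplasmic channels open, Mog sits on the outermost surface, Opalin is a transmembrane glycoprotein of oligodendrocytes and ermin (Ermn) is bound to their actin cytoskeleton. The set is therefore one of sheath proteins in general.

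All 9 genes had a lower mean after ON-CR, and 7 of the 9 fell with an adjusted p at or under 0.05 (limma on log2(value + 1), Benjamini-Hochberg over all 25755 genes). The 7 were Mbp, Mobp, Mal, Mog, Cnp, Mag and Ermn, while Cldn11 and Opalin did not pass. Over all genes, 290 were called lower, which is 1.13%, and 250 were called higher, which is 0.971%. Among the 3122 genes with a mean value of at least 1000, a level that all 9 members reached in each group, 156 or 5.00% were called lower. Scaled to library sums, the split over all genes was 195 lower and 421 higher, with the median of all genes at 0.15, and scaled to library sums without the members it was 241 and 316. The median log2 fold change as deposited was -0.86 over the 9 genes and 0.03 over all genes. In bulk tissue, fewer oligodendrocytes, less of these transcripts per oligodendrocyte and a larger share of RNA from other cells cannot be told apart. For crushed nerves of this genotype, the study reports greater cellularity, more GFAP staining and more tumor-associated monocytes than after sham surgery. It also reports a higher percentage of cells that stain for Olig2. How these cell changes bear on the fall of the 9 genes was not tested.

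The number of members called depended on single libraries. Without sham mouse 2 or without ON-CR mouse 6 it was 0 by limma, and the lowest adjusted p by limma was 0.0506 and 0.0552. At an unadjusted p under 0.05, 8 and 9 of the 9 genes were then lower, against 5.43% and 6.41% of all genes. Without sham mouse 1 it was 3 (Mbp, Mobp and Mal), and leaving out any other mouse gave 6 or 7. All 9 fold changes stayed negative in each of these fits.

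**Figure D1:**
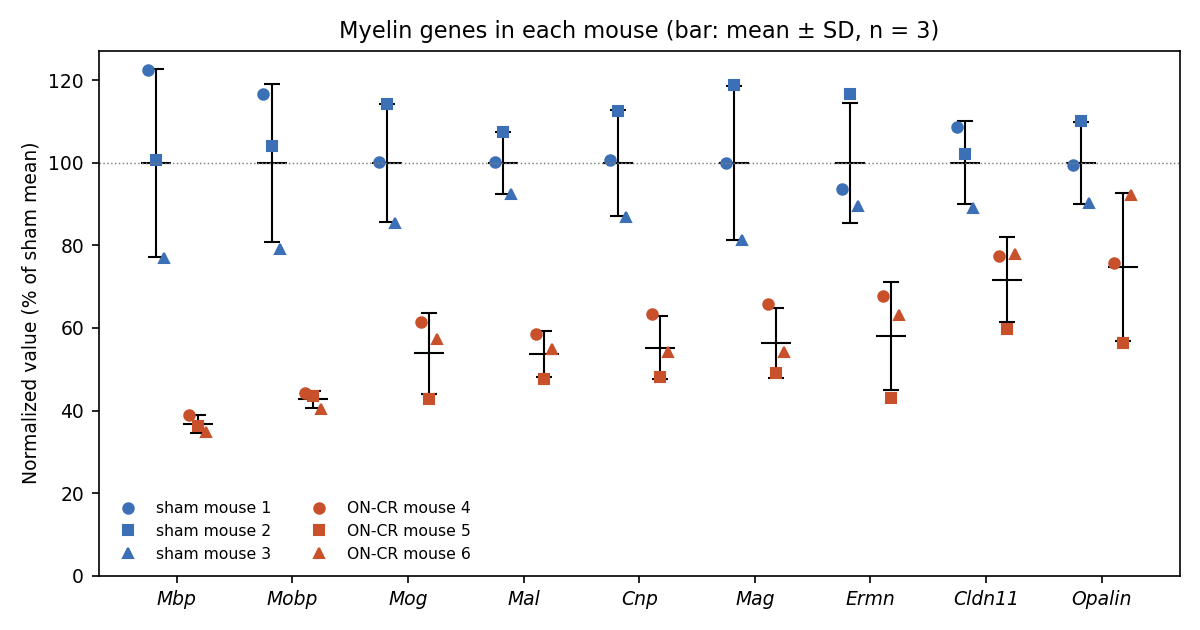
Normalized value of each of the 9 genes in each mouse, as a percentage of that gene's mean in sham mice, with genes ordered by log2 fold change (points: mice; bars: mean ± SD, n = 3). ON-CR mice lay at 34.9% to 39.0% of the sham mean for Mbp and at 56.3% to 92.2% for Opalin, the only gene whose groups overlapped.

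The libraries held 17414040 to 23620993 estimated reads on genes, and each ON-CR library was shallower than each sham library. The least abundant member, Opalin, still had at least 1040 estimated reads in every library, so counting error was small beside the spread between mice. Sex-linked transcripts were unequal between the groups, with Xist between 2.14 and 30.9 in sham mice and between 2708 and 6357 after ON-CR, so that surgery and this difference cannot be told apart. The Y-linked gene Ddx3y was at 1291 to 1645 in sham mice, at 976 in ON-CR mouse 4, and at 4.19 and 0 in ON-CR mice 5 and 6. Mouse 4 was thus the one library with both Xist (2708) and Ddx3y at such levels, which was not resolved here, and its 9 members were at 39.0% to 77.4% of the sham mean. Without mouse 4, limma called the same number of members, 7. Markers of other cell types differed between single libraries. The summed value of 6 plasma and B cell genes was 98368 in ON-CR mouse 6 and at most 2392 in the other mice, and that of 8 neuronal genes was 9881 in ON-CR mouse 5 and at most 4357 elsewhere. The summed value of 5 airway and gland genes was 5451 to 8015 in sham mouse 3 and ON-CR mice 5 and 6, and at most 190 in the others. The 4 photoreceptor genes summed to 24.8 to 59.2 in all 6 mice. Their part in the results below was not tested.

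The levels of the members spanned a wide range. Per kilobase of exon in the GENCODE M21 annotation, the mean value in sham mice was 125028 ± 28450 for Mbp and 657 ± 65.4 for Opalin (SD, n = 3). Between them the order in sham mice was Cnp, Mobp, Cldn11, Mog, Mag, Mal and Ermn. The ranges of Mobp and Cldn11, of Cldn11 and Mog, and of Mal and Ermn overlapped in sham mice, so that the order within these pairs was not resolved. After ON-CR, Cldn11 (8258 ± 1183 per kilobase) stood above Mobp (5926 ± 282 per kilobase), with no overlap between the ranges of both genes (SD, n = 3). The exon length counts every annotated exon, including alternative ones, and so understates genes with exons that are rarely used.

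Promoter sequences of the members are shown because the genes moved in one direction. The RefSeq table for GRCm38.p6 held 10 promoters of 8 members. Of these, 4 are printed as up to 250 bases before the transcription start, without bases that GENCODE M21 counts to the gene, on the strand of the gene and 5′ to 3′: Mobp, which fell most of the 8, Mag, which fell by an intermediate amount, and Cldn11 and Opalin, which did not pass the test. Capitals mark matches on either strand to CTGGNAC, a motif of the oligodendrocyte factor MYRF, and to ACAANG, a motif of SOX proteins such as SOX10.
Mobp (chr9:120149492-120149706, plus strand): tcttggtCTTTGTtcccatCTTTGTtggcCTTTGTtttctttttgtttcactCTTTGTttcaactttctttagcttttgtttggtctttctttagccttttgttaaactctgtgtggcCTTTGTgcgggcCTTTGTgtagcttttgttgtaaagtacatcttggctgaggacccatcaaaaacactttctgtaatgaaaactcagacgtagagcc
Mag (chr7:30914874-30915113, minus strand): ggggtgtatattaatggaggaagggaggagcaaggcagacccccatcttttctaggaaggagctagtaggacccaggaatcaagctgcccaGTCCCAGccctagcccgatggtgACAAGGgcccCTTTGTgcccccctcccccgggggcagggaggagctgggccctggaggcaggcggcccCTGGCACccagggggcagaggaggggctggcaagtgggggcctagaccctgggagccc
Cldn11 (chr3:31149670-31149919, plus strand): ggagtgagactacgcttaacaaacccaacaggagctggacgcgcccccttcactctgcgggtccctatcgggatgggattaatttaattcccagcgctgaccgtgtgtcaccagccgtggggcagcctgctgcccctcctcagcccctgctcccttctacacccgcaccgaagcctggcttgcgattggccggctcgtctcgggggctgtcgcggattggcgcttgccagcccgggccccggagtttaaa
Opalin (chr19:41077114-41077363, minus strand): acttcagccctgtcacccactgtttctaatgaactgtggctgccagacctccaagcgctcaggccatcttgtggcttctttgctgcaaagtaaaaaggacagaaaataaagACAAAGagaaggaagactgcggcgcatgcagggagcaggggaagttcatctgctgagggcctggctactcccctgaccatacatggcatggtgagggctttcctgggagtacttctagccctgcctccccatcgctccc

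The printed bases of Mobp hold 6 matches to ACAANG and none to CTGGNAC. Those of Mag have 2 matches to each motif at the printed start. Another start of Mag (chr7:30914322-30914571) has 1 match to ACAANG and 0 to CTGGNAC. The upstream bases of Cldn11 have no match to either. In the search of the full 300 bases (250 before and 50 after the start), ACAANG was found for 6 of the 8 genes (Cnp, Ermn, Mag, Mobp, Mog and Opalin), against 41.2% of all 32851 promoters in the table. CTGGNAC was found for 4 of the 8 (Cnp, Mag, Mog and Opalin), against 19.3% of all promoters, and the match of Opalin lies after the start and is not printed. CANNTG, the E-box of OLIG2 and related factors, was found for 3 of the 8 (Cnp, Mag and Opalin), against 72.3%, and GGGCGG, a motif of SP1, for 2 of the 8 (Cldn11 and Cnp), against 35.7%. Mag counts with 3 starts, and no match overlapped a match to another motif. Of the 2 genes that did not pass the test, Opalin held matches to both motifs and Cldn11 to neither. A match is a description of the letters and not a binding site.

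Mbp and Mobp, whose proteins hold the compact membrane together and whose mRNAs are both carried out into the oligodendrocyte processes, had the largest log2 fold changes of the 9 genes. Mbp (ENSMUSG00000041607.17, chr18:82475146-82585637 of GRCm38) stood at 1296440, 1065460 and 814697 in sham mice 1, 2 and 3, whereas mice 4, 5 and 6 after ON-CR had 412899, 384902 and 369255. It was the most abundant transcript of every sham library and ranked 2, 3 and 2 in ON-CR mice 4, 5 and 6. The sham mice differed by more than the ON-CR mice, and the highest ON-CR value, in mouse 4, lay below the lowest sham value, in mouse 3. The log2 fold change was -1.42 (limma, SE 0.22 and adjusted p = 0.0117), a level 2.68-fold lower.

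Mobp (ENSMUSG00000032517.16, chr9:120149707-120181484) stood at 110985, 99011 and 75225 in sham mice 1, 2 and 3, whereas mice 4, 5 and 6 after ON-CR had 42032, 41343 and 38396. The 3 ON-CR mice were close together and all lay under the lowest sham mouse, sham mouse 3. Its log2 fold change was -1.21 (limma, SE 0.16 and adjusted p = 0.0055), a level 2.31-fold lower. The non-coding gene Gm38642 shares 79 exonic bases with Mobp on the same strand and was at 31.2 to 69.5, far below it.

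The 3 genes of the sheath membrane and its tight junctions had log2 fold changes between -0.90 and -0.44. Mal (ENSMUSG00000027375.14, chr2:127633226-127656695), the sheath proteolipid, stood at 10478, 11234 and 9654 in sham mice 1, 2 and 3, whereas mice 4, 5 and 6 after ON-CR had 6131, 4988 and 5749. The groups were well apart and the spread within each was small. The log2 fold change of Mal was -0.90 (limma, SE 0.12 and adjusted p = 0.00527), which was the lowest adjusted p of the 9 genes.

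Cldn11 (ENSMUSG00000037625.7, chr3:31149920-31164324) stood at 23420, 21996 and 19174 in sham mice 1, 2 and 3, whereas mice 4, 5 and 6 after ON-CR had 16657, 12889 and 16783. The groups did not overlap, but the gap between sham mouse 3 and ON-CR mouse 6 was narrow. Its log2 fold change was -0.48 (95% interval -0.80 to -0.17, adjusted p = 0.118 and unadjusted p = 0.00589 by limma).

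Opalin (ENSMUSG00000050121.9, chr19:41061710-41077113) stood at 1926, 2132 and 1747 in sham mice 1, 2 and 3, whereas mice 4, 5 and 6 after ON-CR had 1467, 1090 and 1785. ON-CR mouse 6 lay above sham mouse 3, so Opalin was the one member with overlapping groups. Its log2 fold change was -0.44 (95% interval -0.82 to -0.06, adjusted p = 0.246 and unadjusted p = 0.0272 by limma). For Cldn11 and Opalin the adjusted p stayed above 0.05 in all 15 other settings tried.

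The 4 genes of non-compact and surface myelin all passed the test, with log2 fold changes between -0.90 and -0.80. Cnp (ENSMUSG00000006782.16, chr11:100574904-100591729) stood at 78008, 87135 and 67240 in sham mice 1, 2 and 3, whereas mice 4, 5 and 6 after ON-CR had 49019, 37260 and 42052. Its ON-CR values were all under the lowest sham value, and its log2 fold change was -0.86 (limma, SE 0.15 and adjusted p = 0.0225). Dnajc7 shares 154 exonic bases with Cnp on the opposite strand, at values of 2045 to 2507, and a library kit that is not stated to keep strand could mix their reads.

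Mag (ENSMUSG00000036634.15, chr7:30899176-30914873), an adhesion molecule of the innermost layer, stood at 22975, 27286 and 18676 in sham mice 1, 2 and 3, whereas mice 4, 5 and 6 after ON-CR had 15133, 11308 and 12431. Sham mouse 2 stood highest and the groups did not overlap. On the log2 scale Mag changed by -0.82 (limma, SE 0.16 and adjusted p = 0.032).

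Mog (ENSMUSG00000076439.12, chr17:37010743-37023398), the surface glycoprotein known as a target of demyelinating antibodies, stood at 15494, 17653 and 13217 in sham mice 1, 2 and 3, whereas mice 4, 5 and 6 after ON-CR had 9481, 6610 and 8868. ON-CR mouse 5 was the lowest and no ON-CR mouse reached a sham value. On the log2 scale Mog changed by -0.90 (limma, SE 0.16 and adjusted p = 0.0214).

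Ermn (ENSMUSG00000026830.9, chr2:58045113-58052864), the actin-binding protein of the late oligodendrocyte, stood at 10286, 12797 and 9818 in sham mice 1, 2 and 3, whereas mice 4, 5 and 6 after ON-CR had 7422, 4729 and 6929. The groups did not overlap, and ON-CR mouse 5 was again the lowest. On the log2 scale Ermn changed by -0.80 (limma, SE 0.18 and adjusted p = 0.0489), at the edge of the threshold, with an adjusted p of 0.0533 to 0.0604 under 3 settings that kept all mice (a pseudocount of 0.1, a minimum mean value of 10, and scaling to library sums). Galnt5 shares 237 exonic bases with Ermn on the opposite strand and was at 9.36 to 20.4.

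**Figure D2:**
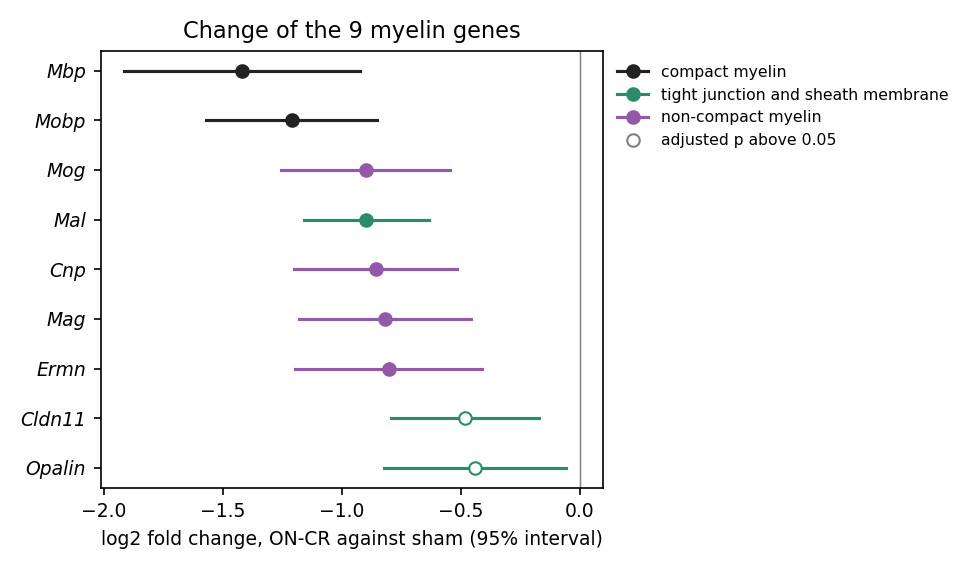
Log2 fold change of each member between ON-CR and sham mice with its 95% interval from limma, coloured by role (filled: adjusted p at or under 0.05). All 9 intervals lie below 0, with fold changes from -1.42 for Mbp to -0.44 for Opalin, whose interval reaches up to -0.06. The open points are Cldn11 and Opalin.

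Without overlap between the groups, 8 of the 9 members were lower in every ON-CR mouse than in every sham mouse. The same held for 11.0% of all genes and for 26.7% of the genes with a mean value of at least 1000. The lowest mouse of a group was much the same from gene to gene, and the highest less so. The highest sham mouse was mouse 2 for 6 genes and mouse 1 for 3, and the highest ON-CR mouse was mouse 4 for 7 genes and mouse 6 for 2. Sham mouse 3 was the lowest sham mouse for 9 of the 9 genes, and ON-CR mouse 5 was the lowest ON-CR mouse for 7 of them, the exceptions being Mbp and Mobp, which were lowest in ON-CR mouse 6. Over the 6 mice, Pearson's r between members ranged from 0.697 (Mobp and Opalin) to 0.999 over the 36 pairs, as a description of libraries that share the group difference.

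Together the 9 genes took up 7.44%, 6.43% and 5.33% of the summed values in sham mice 1, 2 and 3. They took up 2.96%, 2.77% and 2.66% in mice 4, 5 and 6 after ON-CR, so that every ON-CR library held less of them than every sham library. Most of this was Mbp, at 79.1% to 82.6% of the members' sum in sham mice and 73.5% to 76.2% after ON-CR. Without Mbp, the other 8 genes summed to 255856 ± 35710 after sham surgery (SD, n = 3) and to 133518 ± 13570 after ON-CR, 52.2% of the sham level.

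**Figure D3:**
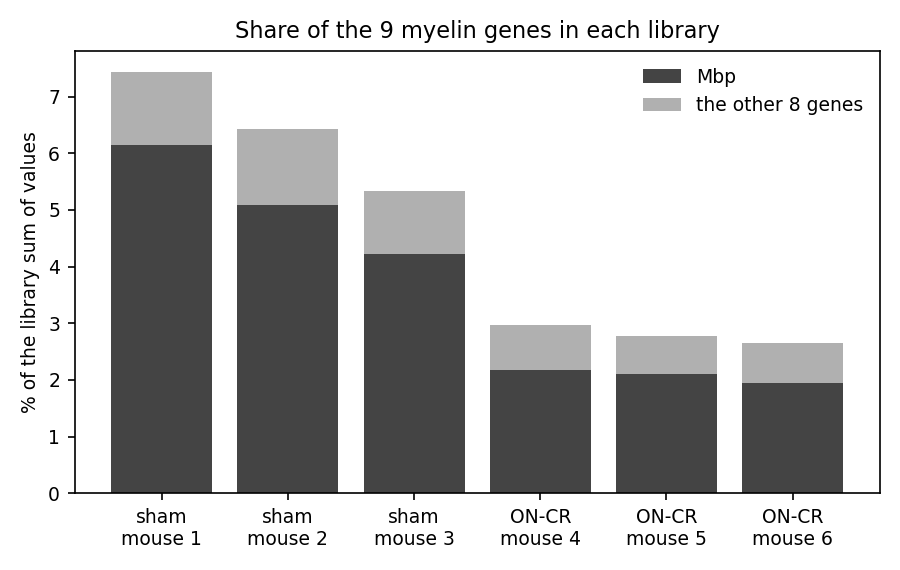
Share of each library's summed values taken by Mbp and by the other 8 genes, one bar per mouse. The share falls from between 5.33% and 7.44% in sham mice to between 2.66% and 2.96% in ON-CR mice, mostly through Mbp.

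Whether the members fell by different amounts was asked with each gene's log2 value minus the mean of the other 8 in the same mouse, a measure in which a common loss of oligodendrocyte RNA cancels. By this measure 3 of the 9 genes had groups without overlap, against 62.5% of all genes when set against the mean of the members in the same way. Because the mean of the members itself fell, a gene that did not change tends to separate the groups here. The 62.5% is therefore no background for differences among the members. Mbp was lower relative to the others by 0.62 on the log2 scale after ON-CR (5.84 ± 0.24 after sham surgery, 5.22 ± 0.19 after ON-CR, SD, n = 3). Cldn11 was higher by 0.43 (-0.46 ± 0.10 after sham surgery, -0.03 ± 0.07 after ON-CR) and Opalin was higher by 0.48 (-4.37 ± 0.08 and -3.89 ± 0.27). For each of the 3 genes the two-sided exact permutation p was 0.1, the smallest that 3 mice against 3 allow, and 0.3 after adjustment over the 9 genes, so that no difference between members passed a threshold of 0.05. Mobp was lower by 0.38 relative to the others, with an overlap of ON-CR mouse 5 and sham mouse 3 (exact permutation p = 0.2). Mal, Mog, Cnp, Mag and Ermn shifted by between -0.03 and 0.08 (exact permutation p = 0.5 to 0.8). Leaving out single mice, the difference stayed between -0.73 and -0.48 for Mbp, between 0.37 and 0.46 for Cldn11 and between 0.33 and 0.58 for Opalin. Without ON-CR mouse 5, the number of genes whose groups did not overlap was 5 in place of 3.

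**Figure D4:**
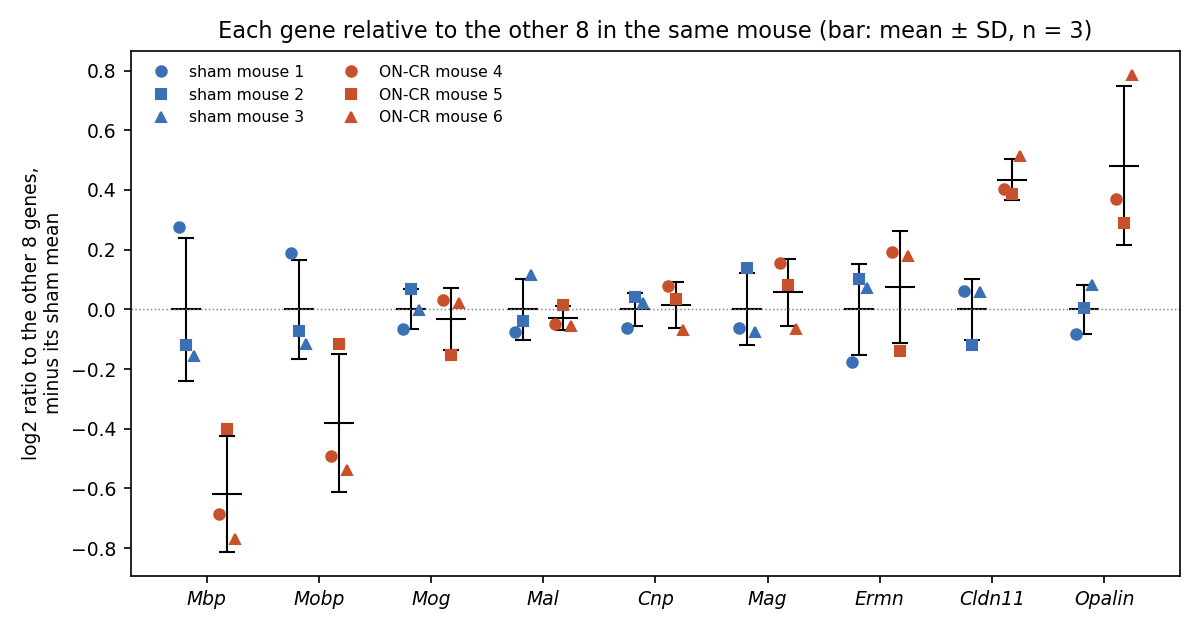
Log2 value of each gene minus the mean of the other 8 in the same mouse, shown as a difference from that gene's sham mean (points: mice; bars: mean ± SD, n = 3). Mbp lies below its sham values in each ON-CR mouse, Cldn11 and Opalin lie above theirs, Mobp has a mean difference of -0.38 with overlapping groups, and the other 5 genes lie between -0.03 and 0.08 on average.

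The wider programme of the oligodendrocyte was described with lists totalling 63 genes. Of these, 11 were called lower and 2 higher, against 1.13% and 0.971% of all genes. Without sham mouse 2 or without ON-CR mouse 6, limma called 1 of them lower and 0 higher, and without sham mouse 1 it called 3 lower and 1 higher. Among 20 other proteins of the sheath, 4 fell and 1 rose, with a median log2 fold change of -0.49. Those that fell included Plekhb1 (log2 fold change -0.93, adjusted p = 0.00814 by limma), the gap junction protein Gjb1 (-1.09, adjusted p = 0.0236) and Anln, which encodes anillin, a scaffold for septins in the sheath (-0.70, adjusted p = 0.0403). The tetraspanin gene Cd9, which other glia and immune cells also express, rose (log2 fold change 0.84, adjusted p = 0.0257 by limma). When 1 mouse was left out, Cd9 passed only without sham mouse 1 or without ON-CR mouse 5, and its adjusted p by limma was otherwise up to 0.18. For Nfasc, the neurofascin of the paranode, the log2 fold change was -0.01 (limma, adjusted p = 0.985).

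Among 19 other genes of mature oligodendrocytes, 7 fell and none rose, with a median log2 fold change of -0.77. Ugt8a and Fa2h, which make the galactolipids of myelin, had log2 fold changes of -1.29 (limma, adjusted p = 0.00733) and -1.18 (adjusted p = 0.0128). Enpp2, which encodes autotaxin, fell by 1.00 on the log2 scale (adjusted p = 0.00297 by limma). Among the 13 genes called on these lists, Enpp2 was the only one with an adjusted p at or under 0.05 in each of the 15 other settings. Gsn, which encodes gelsolin (-0.98, adjusted p = 0.0124), Bcas1 (-0.86, adjusted p = 0.0157), Gpr37 (-0.78, adjusted p = 0.0388) and Evi2a (-0.78, adjusted p = 0.039) were also lower. The log2 fold change was 0.07 for Apod, -0.09 for Klk6 and -0.51 for the transferrin gene Trf, none of which passed the test.

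Of the 8 transcription factors of oligodendrocytes, 0 passed the test by limma, and 2 had an unadjusted p under 0.05 (Sox10 and Myrf). Over all genes, 4016 of 25755 had an unadjusted p at that level by limma, in either direction. The log2 fold change of Myrf was -0.39 (limma, adjusted p = 0.271), that of Sox10 was -0.50 (adjusted p = 0.201), that of Olig1 was -0.28 (adjusted p = 0.354) and that of Olig2 was -0.03 (adjusted p = 0.952), and the list had a median of -0.21. The genes for transport and splicing of myelin mRNAs had a median of -0.10, with 0 of 8 called (1 at an unadjusted p under 0.05), among them Qk, whose protein binds the mRNA of Mbp (-0.10, adjusted p = 0.801), and Hnrnpa2b1, which carries it (-0.13, adjusted p = 0.593). Of 8 genes of oligodendrocyte precursors, Sox6, which holds these cells immature, rose (log2 fold change 0.55, adjusted p = 0.0355 by limma, and above 0.05 whichever mouse was left out), and the other 7 did not pass. This list had a median of -0.23, with 5 of 8 genes at an unadjusted p under 0.05 (Sox6 among them). Without overlap between groups, 4 of the 8 were lower, against 11.0% of all genes. These were Enpp6 at -0.74, Neu4 at -0.40, Pdgfra at -0.29 and Gpr17 at -0.26. Whether the members changed more than these lists was not tested.

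**Figure D5:**
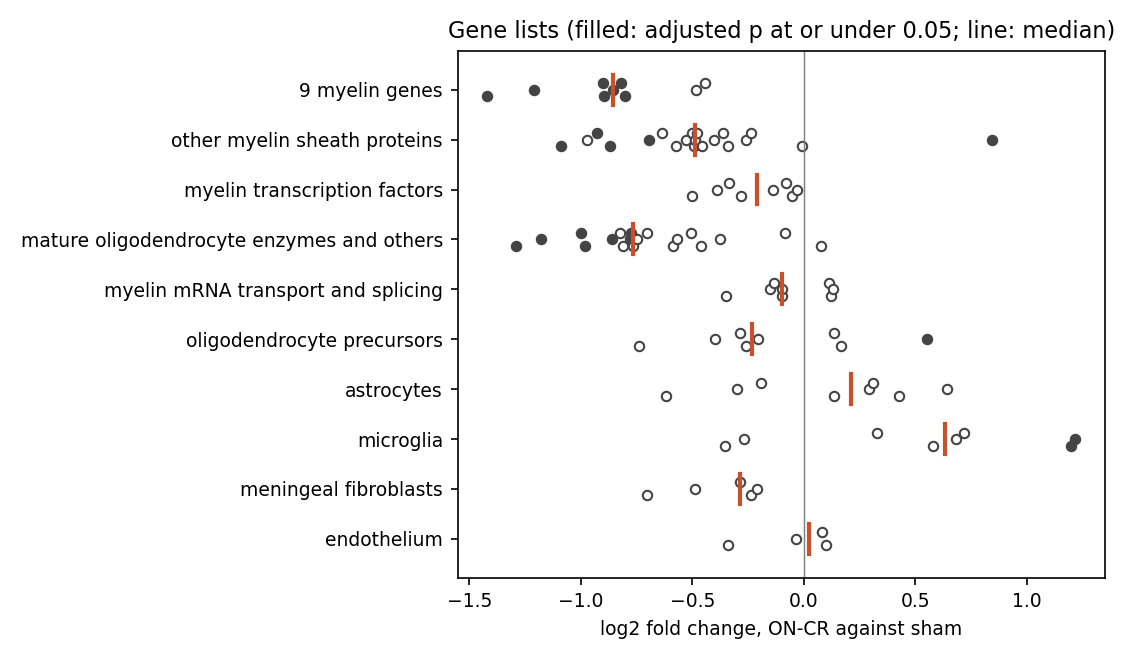
Log2 fold change between ON-CR and sham mice of each gene in the lists, 1 row per list (filled: adjusted p at or under 0.05 by limma; line: median). The 9 myelin genes have a median of -0.86 and lie wholly below 0, mature oligodendrocyte genes have a median of -0.77, and the medians of transcription factors (-0.21) and mRNA transport genes (-0.10) lie nearer 0.

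Markers of other cells were measured beside the members. Of 8 microglial genes, Aif1 and C1qa were higher (log2 fold changes 1.22 and 1.20, adjusted p = 0.026 and 0.00924 by limma), and the list summed to 15320 to 19675 in sham mice and 19396 to 29403 after ON-CR. On the same list Tmem119 was at -0.27 (adjusted p = 0.351 by limma) and P2ry12 at -0.35 (adjusted p = 0.364). The 8 astrocyte genes summed to 209246 to 258352 in sham mice and 280129 to 309326 after ON-CR, without overlap, and 0 of 8 were called by limma. At an unadjusted p under 0.05 by limma were 4 of the 8, against 4016 of all 25755 genes. The higher sum after ON-CR came from Gfap, with a mean of 114862 in sham mice and 179241 after ON-CR (log2 fold change 0.64, adjusted p = 0.0859 by limma). The other 7 summed to 110060 to 136359 in sham mice and 106369 to 123664 after ON-CR, with overlap, and among them Aldoc was at -0.62 (adjusted p = 0.095 by limma), Aqp4 at 0.43 (adjusted p = 0.175) and Slc1a3 at 0.31 (adjusted p = 0.269). Some members are also made by Schwann cells. The 7 Schwann cell genes measured, of 8 listed, summed to 871 to 1215 in sham mice and 1083 to 1173 after ON-CR, mostly through Sox2, which other glia also express (means 648 and 769). Of these 7 genes Egr2 was called higher (log2 fold change 2.04, adjusted p = 0.025 by limma), while Pmp2 was at -1.93 (adjusted p = 0.218) and Cdh19 at -0.33 (adjusted p = 0.354). The 5 meningeal fibroblast genes all had a lower fitted level, with 0 called by limma and 2 at an unadjusted p under 0.05 (Col1a1 at -0.70 and Dcn at -0.49), and they summed to 18014 to 21476 in sham mice and 11862 to 18184 after ON-CR. The part of changes in other cells in the fall of the members was not tested.

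The genes whose pattern over the 6 mice was most like that of the members were sought among 14427 genes with a mean value of at least 50, by Pearson's r with the average of the members. The 10 highest, all with r of at least 0.993 over 6 mice, were Snx15, Agpat4, Tmeff1, Tbc1d14, Degs1, Bcas1, Vps37c, Enoph1, Fez1 and Tmem97. All 10 were lower after ON-CR without overlap between the groups, which follows in part from the way they were found. Bcas1 is on the list of oligodendrocyte genes above. Agpat4 and Degs1 encode enzymes of phospholipid and ceramide synthesis, and their log2 fold changes were -0.72 and -0.39 (adjusted p = 0.0159 and 0.0985 by limma). Enoph1 had the largest fall of the 10 (log2 fold change -0.88, adjusted p = 0.00761 by limma).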

How the data were processed

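RNA from optic nerves of 6 mice (10 ng input) was sequenced, 1 library per mouse. Per the labels and the methods of the study, reads were aligned with DRAGEN against Ensembl release 101, quantified on mm10 Ensembl release 102 gene models in Partek Flow 10.0 and scaled by the authors to median-based normalized counts. The deposited values are therefore a signal in normalized counts and not raw counts: 67.0% to 69.5% were whole reads within 0.02 reads, so no count model was run, which departs from the count-based test of the study. One read was worth 0.885 to 1.06 units. All 6 columns were mapped to mice by name, and 0 columns were left over.

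From these values log2(value + 1) was fitted by limma 3.58.1 under R 4.3.3, letting the variance follow the mean and using no covariate, and p-values were adjusted by Benjamini-Hochberg over all 25755 genes. Fold changes are on that scale. In simulated data with 200 of 25755 genes changed 4-fold, the fit recovered 199 with their sign and made 7 false calls. The members changed less, from 1.36-fold for Opalin to 2.68-fold for Mbp, so this recovery does not describe the power at their effect sizes. Replicate libraries differed beyond sampling noise (chi-square per degree of freedom 15.1 to 42.6). Ratios to the other members were compared with exact permutation tests, and promoters were searched with Python 3.11.15 on both strands. Gene positions are from GENCODE M21 (GRCm38). Alternatives were other pseudocounts (2 and 0.1), scalings, a minimum mean value of 10, robust and weighted fits, and leaving out each mouse. All 9 members were named whatever their values, with the called genes of the oligodendrocyte lists, a few uncalled ones chosen after their values were seen, and the 10 genes of the most similar pattern. The members and lists were chosen with earlier results of these data known. Some genes of the lists are counted but not reported by name here.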

Additional observations from a re-analysis of the deposited data

How the results depend on the processing

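All 9 members kept a negative log2 fold change in each of the 15 settings tried, and of 135 combinations of member and setting 113 kept their side of the threshold, 22 lost an adjusted p at or under 0.05 and 0 gained one. With all mice kept, the number of members called stayed at 6 or 7, with Ermn as the gene lost. Leaving out 1 mouse at a time, limma called 0 to 7 members lower, and 28 to 365 genes lower over the whole table. Of the wider oligodendrocyte genes it called 1 to 11 lower and 0 or 1 higher. The number of members whose ratio to the other 8 did not overlap between groups was then 3 to 5, and the log2 difference of the summed members lay between -1.48 and -1.17. Genes called higher numbered 250, and 421 with scaling to library sums or 388 with array quality weights. Leaving out 1 mouse gave 39 (without ON-CR mouse 6) to 489 (without ON-CR mouse 5) called higher, with 78 without sham mouse 2. The scaling without the members was chosen after seeing the data. No paired analysis was possible because the mice carry different numbers in the 2 groups. With 3 mice a group, no exact permutation p can go below 0.1, and depth did not limit any member.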
